A study of Mus musculus with 17 samples.

Results

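The genes described here are 10 markers of monocytes and dendritic cells, taken as gene rows of the count table whose Ensembl identifier, without its version, carries the symbol F13a1, Ly6c2, Ccr2, Cx3cr1, Cd209a, Batf3, Zbtb46, Xcr1, Clec9a or Id2. All 10 were found among the 47643 gene rows, and all 10 passed the filter on low counts. The 17 RNA libraries came from mouse marrow, after lysis of the red cells, from cells sorted as cKit+ Lymph- Ery- haematopoietic stem and progenitor cells (HSPC). The mice differed at the upstream regulatory element (URE), an enhancer of the PU.1 gene Spi1, and at Tet2, which encodes an enzyme that oxidises 5-methylcytosine in DNA. The acute myeloid leukaemia (AML) libraries were 3 of UREΔ/+;Tet2-/- mice (URE het Tet2 KO) and 2 of UREΔ/+;Tet2+/- mice (URE het Tet2 het). The libraries labelled Normal were 3 of URE+/+;Tet2-/- (Tet2 KO), 3 of URE+/+;Tet2+/- (Tet2 het), 3 of UREΔ/+;Tet2+/+ (URE het) and 3 of URE+/+;Tet2+/+ (wild type, WT) mice. Controls were described as age-matched, and no age, sex or batch was given per library. Since all 5 AML libraries carried both mutations and no Normal library did, an effect of leukaemia and one of the combined genotype cannot be told apart. How the alleles were made, and whether a Cre driver was used, is not stated in the labels. The labels do not state that libraries are from different mice, so p-values measure the spread between libraries, which may be technical.

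Monocytes and dendritic cells both descend from bone marrow progenitors that depend on PU.1, the product of Spi1. Classical mouse monocytes carry high Ly6C and leave the marrow through the chemokine receptor CCR2, while patrolling monocytes carry CX3CR1. Conventional dendritic cells express the zinc finger factor ZBTB46, and their cross-presenting type 1 branch needs BATF3 and ID2 and displays XCR1 and CLEC9A. CD209a (DC-SIGN) is a C-type lectin of monocyte-derived and type 2 dendritic cells and of the monocyte progenitors that lead to them. In RNA of a sorted pool of progenitors, early commitment and a few mature cells carried over cannot be told apart as the source of these transcripts.

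Promoter windows of 4 members, picked with the results known, are shown, 2 that were high in 3 of the AML libraries and 2 that were low in AML. Of these, Ly6c2 did not pass in AML against Normal, and Ccr2, which passed, is not shown. They are RefSeq sequences of GRCm38.p6, running 5′ to 3′ on the gene's strand from 250 bases before the annotated start to 50 bases after it. All 10 members matched the table by symbol. F13a1 is at chr13:37050195-37050494 (minus strand), Ly6c2 at chr15:75111888-75112187 (minus strand), Cd209a at chr8:3748935-3749234 (minus strand) and Clec9a at chr6:129408612-129408911 (plus strand). Capitals mark GAGGAA, the core that PU.1 recognises, searched on both strands.
F13a1: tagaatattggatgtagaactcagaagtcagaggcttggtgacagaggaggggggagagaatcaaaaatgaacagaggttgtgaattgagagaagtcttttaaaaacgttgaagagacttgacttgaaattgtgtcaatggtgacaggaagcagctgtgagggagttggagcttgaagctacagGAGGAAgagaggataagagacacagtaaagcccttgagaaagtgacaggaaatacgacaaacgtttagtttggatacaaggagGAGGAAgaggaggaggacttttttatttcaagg
Ly6c2: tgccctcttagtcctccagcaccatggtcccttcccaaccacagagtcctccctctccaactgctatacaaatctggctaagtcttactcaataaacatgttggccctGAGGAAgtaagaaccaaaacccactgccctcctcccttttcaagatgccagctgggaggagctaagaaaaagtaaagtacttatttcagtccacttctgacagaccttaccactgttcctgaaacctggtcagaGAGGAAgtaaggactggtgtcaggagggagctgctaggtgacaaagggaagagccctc
Cd209a: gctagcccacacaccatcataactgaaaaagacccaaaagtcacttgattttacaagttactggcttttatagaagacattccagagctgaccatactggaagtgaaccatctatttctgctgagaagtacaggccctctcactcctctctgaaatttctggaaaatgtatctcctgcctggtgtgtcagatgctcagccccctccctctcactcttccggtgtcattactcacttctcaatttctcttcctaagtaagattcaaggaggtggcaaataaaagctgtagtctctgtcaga
Clec9a: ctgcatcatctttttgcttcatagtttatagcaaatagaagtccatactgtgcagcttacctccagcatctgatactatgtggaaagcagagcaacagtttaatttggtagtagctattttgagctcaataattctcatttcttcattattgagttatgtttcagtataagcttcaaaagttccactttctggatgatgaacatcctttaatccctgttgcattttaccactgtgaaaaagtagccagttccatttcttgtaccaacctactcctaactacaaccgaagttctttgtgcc
The core stood 2 times in the F13a1 window shown and 2 times in that of Ly6c2, and these letters were not in the windows of Cd209a and Clec9a. Batf3 also held it, so 3 of the 10 members had the core in at least 1 window of this length. Of all 32851 RefSeq promoter windows 28.3% held it, a share per window and not per gene. F13a1 and Ly6c2 each have 2 such windows, and the window not shown held the core 1 time for F13a1 and 2 times for Ly6c2. Among the 4 windows shown, the core was in those of the members high in AML and not in those low in AML. These windows were picked with the results known, so this split cannot be read as a property of either set. Of the members not shown, Batf3 (log2 -1.92, did not pass) held the core, and Ccr2, lower in AML, did not. The AP-1 core TGANTCA, with N any base, was in 7.81% of all windows and in that of Zbtb46 alone among the members. No member's window held both motifs. A match is a description of the letters and not of a bound site.

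Depth ran between 21.1 and 38.3 M gene counts (median 32.2 M). Mitochondrial rRNA made up 24.6 to 41.1% of these counts, so the depth left for other genes was lower. Its share was 24.6 to 28.8% in the libraries whose titles are numbered 1 to 7. In those numbered 8 to 17 it was 29.4 to 41.1%, without overlap. Whether these title numbers mark batches is not known, and the effect of this share on the members was not tested. Levels are given as CPM, counts scaled to library size. On the first principal component of log2 CPM, which held 36.6% of the variance, URE het Tet2 KO replicates 2 and 3 and URE het Tet2 het replicate 1 lay at 154, 134 and 139. The other AML libraries lay at 14.5 and -14.2, and the 12 Normal libraries between -56.1 and -8.03. Kit, the receptor used for the sort, had 117 to 170.4 CPM in AML and 99.9 to 187 CPM in Normal libraries. Cd34, a progenitor surface marker, had 0.0650 to 73.6 CPM in AML and 59.4 to 145 CPM in Normal libraries. Spi1 had 7.83 to 98.6 CPM in AML and 45.3 to 137 CPM in Normal libraries. The Lymph- and Ery- gates were checked on marker lists. All 5 B cell markers together had a median sum of 0.937 CPM in AML and 11.1 CPM in Normal libraries. The 5 T and NK cell markers summed to 17.5 to 91.5 CPM in AML and 55.3 to 147 CPM in Normal libraries, nearly all of it Nkg7 (17.03 to 91.4 CPM in AML and 54.2 to 145 CPM in Normal libraries), while Cd3e, which encodes a T cell receptor subunit, had at most 2.93 CPM in AML and 0.984 CPM in Normal libraries. The 4 erythroid markers summed to 0.453 to 9.85 CPM in AML and 0.865 to 31.6 CPM in Normal libraries.

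Across the 12 Normal libraries the members covered a wide range of levels. Per kilobase of exon, Ly6c2 was highest at 223 ± 92.1 CPM per kb, followed by F13a1 at 29.9 ± 10.3 CPM per kb (mean ± SD, n = 12 libraries). Ccr2 at 13.5 ± 4.98 and Id2 at 12.7 ± 3.93 CPM per kb did not differ beyond their spread. Clec9a at 1.66 ± 1.07, Cx3cr1 at 1.38 ± 0.341 and Cd209a at 0.917 ± 0.672 CPM per kb came next, with spreads that overlapped. Zbtb46, Xcr1 and Batf3 were lowest, at 0.340 ± 0.231, 0.259 ± 0.172 and 0.218 ± 0.208 CPM per kb, also with spreads that overlapped. Batf3 had at most 28 counts in any library, while Clec9a had 8 to 534. In bulk RNA, fewer cells of a type and less RNA per cell cannot be told apart.

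Between AML and Normal libraries, the members did not move one way. F13a1, a monocyte transcript, was higher in AML, and Ccr2, Cd209a and Clec9a were lower, at an adjusted p under 0.05 in the quasi-likelihood test of edgeR. That made 1 of 10 members higher, where 6.94% of the 19951 genes tested were higher, and 3 of 10 lower, where 4.02% of genes were lower. The median log2 fold change of the 10 members was -1.29, against 0.05 over all genes tested. The other 6 members did not pass. DESeq2 called 5 members, the same 4 with Xcr1 in addition, and 16.3% of all genes. Leaving out together the 3 AML libraries that stood apart, a choice made after the data were seen, left 1 library in each compound group, whose spread was taken from the other genotypes. In that fit the log2 fold change was 0.22 for F13a1 and -0.57 for Ly6c2.

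**Figure D1:**
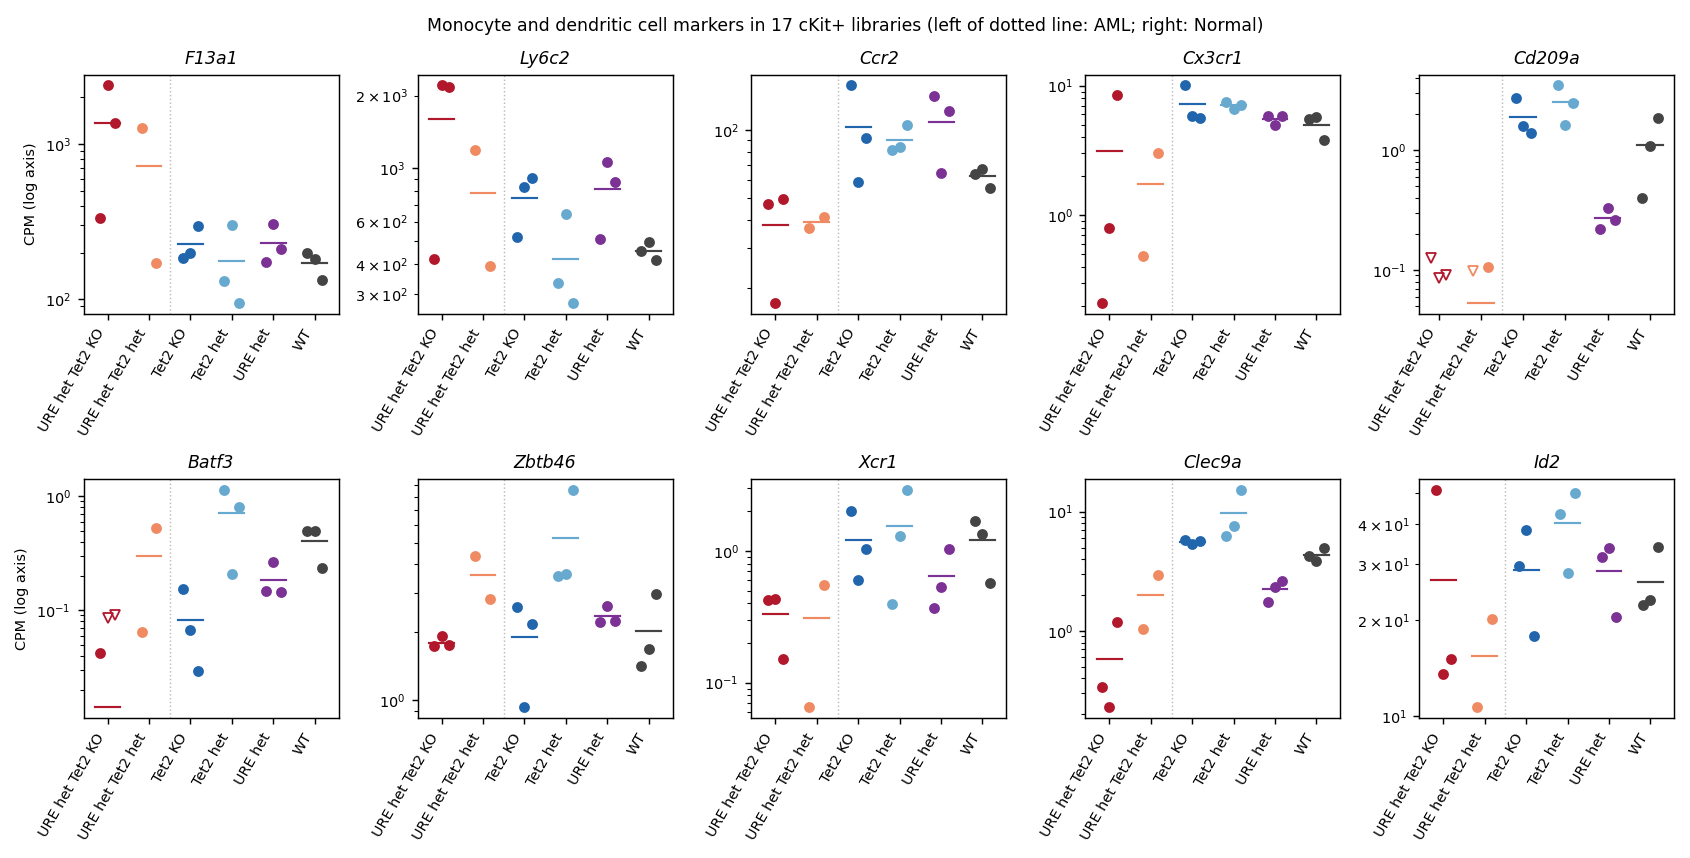
Levels of the 10 members in each library by genotype, in CPM on log axes whose ranges differ between panels. Points are libraries, horizontal bars are genotype means (a mean of 0 has no bar) and open triangles mark libraries with 0 counts, drawn at the level of 3 counts. F13a1 and Ly6c2 are highest in the same 3 AML libraries, Ccr2 is lower in the 5 AML libraries than in the 12 Normal ones, and Cd209a has no count in 4 of the 5 AML libraries.

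F13a1, on chromosome 13 at 36867178 to 37050244 (GRCm38), encodes the A subunit of coagulation factor XIII, a transglutaminase made by monocytes and megakaryocytes. Its levels were 335, 2391 and 1371 CPM in URE het Tet2 KO and 1265 and 172 CPM in URE het Tet2 het libraries. They were 185, 199 and 295 CPM in Tet2 KO, 131, 303 and 94.8 CPM in Tet2 het, 174, 306 and 213 CPM in URE het and 199, 181 and 133 CPM in WT libraries. The 3 AML libraries that stood apart had 1265 CPM or more, URE het Tet2 KO replicate 1 was just above the Normal range, and URE het Tet2 het replicate 2 was inside it. The log2 fold change of AML over Normal was 2.31 ± 0.41 (SE; edgeR adjusted p = 0.00361). With URE het Tet2 het replicate 1 left out it was 1.28 (adjusted p = 0.0780), and without the 3 libraries apart 0.22 (adjusted p = 0.795).

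Ly6c2, on chromosome 15 at 75108158 to 75111970, encodes the Ly6C2 antigen of classical monocytes. It had 420.5, 2207 and 2165 CPM in URE het Tet2 KO and 1187 and 392 CPM in URE het Tet2 het libraries. It had 515, 834 and 909.5 CPM in Tet2 KO, 334, 643 and 275 CPM in Tet2 het, 508, 1062 and 878 CPM in URE het and 452, 495 and 415 CPM in WT libraries. The 3 libraries above the Normal range were those with the most F13a1, and the other 2 AML libraries lay inside it. The fold change did not pass (log2 0.94 ± 0.34, edgeR adjusted p = 0.0932). It passed without URE het Tet2 KO replicate 1 (adjusted p = 0.00853), and was -0.57 without the 3 libraries apart (adjusted p = 0.413). Of the 50-base windows of Ly6c2 exons, 14.5% also occur in other transcripts, 13.9% in those of its near copy Ly6c1, so its counts may be split or shared.

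Ccr2, on chromosome 9 at 124101950 to 124113557, encodes the receptor for the chemokine CCL2 that guides classical monocytes out of the marrow. It had 47.0, 17.1 and 49.4 CPM in URE het Tet2 KO and 36.6 and 41.3 CPM in URE het Tet2 het libraries. It had 158, 58.9 and 91.7 CPM in Tet2 KO, 81.2, 84.0 and 105 CPM in Tet2 het, 141, 64.4 and 121 CPM in URE het and 63.9, 67.2 and 55.5 CPM in WT libraries. Every AML library lay below every Normal library, including the 3 with high F13a1 and Ly6c2. The share of all genes that separate AML from Normal libraries in this way was not counted. The log2 fold change was -1.21 ± 0.28 (edgeR adjusted p = 0.0141), and over 17 omissions of 1 library it ranged from -1.36 to -1.07. The call was lost with URE het Tet2 het replicate 1 left out (adjusted p = 0.0766), among the libraries whose titles are numbered 8 to 17 (adjusted p = 0.107) and without the 3 libraries apart (adjusted p = 0.128).

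Cx3cr1, the fractalkine receptor of patrolling monocytes, had 0.211, 0.803 and 8.43 CPM in URE het Tet2 KO and 0.488 and 3.01 CPM in URE het Tet2 het libraries. It had 10.04, 5.79 and 5.65 CPM in Tet2 KO, 7.54, 6.6004 and 7.06 CPM in Tet2 het, 5.82, 5.02 and 5.86 CPM in URE het and 5.55, 5.69 and 3.80 CPM in WT libraries. Of the 5 AML libraries 4 lay below the Normal range, and URE het Tet2 KO replicate 3 was inside it. The fold change did not pass with that library (log2 -1.37 ± 0.61, edgeR adjusted p = 0.163) and passed without it (log2 -2.70, adjusted p = 0.00434). In the annotation used here the span of Cx3cr1 overlaps 5 other genes, among them Wdr48 and Ttc21a on the opposite strand, and the strand setting of the counts is not known, so its counts are uncertain.

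Cd209a, on chromosome 8 at 3743397 to 3748984, was the member with the largest fitted difference. URE het Tet2 KO libraries had 0, 0 and 0 counts, which allow up to 0.127, 0.0860 and 0.0907 CPM, and URE het Tet2 het libraries had 0 counts, which allow up to 0.0975 CPM, and 0.106 CPM (5 counts). Levels were 2.75, 1.60 and 1.38 CPM in Tet2 KO, 3.47, 1.63 and 2.46 CPM in Tet2 het, 0.220, 0.332 and 0.260 CPM in URE het and 0.401, 1.08 and 1.85 CPM in WT libraries. These limits and the intervals below cover counting error only. Every AML library lay below every Normal library, a separation whose share over all genes was not counted. Among Normal libraries the 3 URE het ones were the lowest. Pooled over libraries, 5 counts in AML against 506 in Normal made Cd209a 46.9-fold lower (95% exact interval 19.96 to 145). The fitted log2 fold change was -6.12 ± 0.76 (edgeR adjusted p = 0.000934), a size that depends on the prior count of the fit, and the call held in each of the 17 omissions and without the 3 libraries apart (adjusted p = 0.0176). None of the 50-base windows of Cd209a occurred in another transcript.

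**Figure D2:**
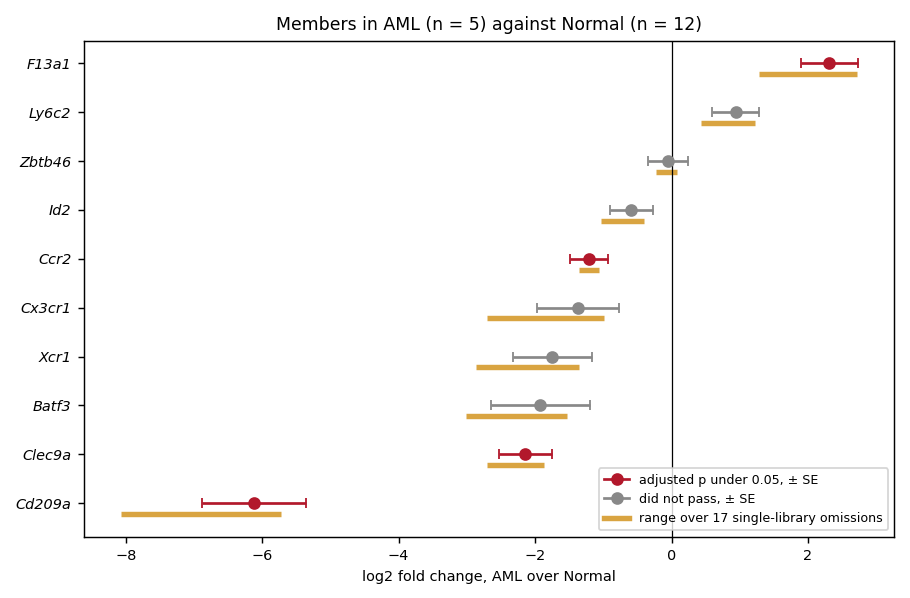
Log2 fold changes of the 10 members, AML (n = 5 libraries) over Normal (n = 12), from edgeR, with points and bars for the estimate ± SE and a band below each for the range over 17 omissions of 1 library. Red points (F13a1, Ccr2, Clec9a and Cd209a) passed an adjusted p of 0.05 and grey points did not, and the band of F13a1 stays above 0 while that of Zbtb46 spans it.

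Among the transcription factors of dendritic cells, Zbtb46 had 1.73, 1.92 and 1.75 CPM in URE het Tet2 KO and 4.36 and 2.82 CPM in URE het Tet2 het libraries. It had 2.60, 0.931 and 2.18 CPM in Tet2 KO, 3.57, 3.64 and 8.58 CPM in Tet2 het, 2.23, 2.62 and 2.25 CPM in URE het and 1.42, 1.69 and 2.96 CPM in WT libraries. All 5 AML libraries were inside the Normal range, and the log2 fold change was -0.05 ± 0.29 (edgeR adjusted p = 0.940). Batf3, a leucine zipper factor needed for type 1 dendritic cells, had 1, 0 and 0 counts in URE het Tet2 KO and 2 and 25 counts in URE het Tet2 het libraries. It had 1 to 28 counts in the Normal libraries (0.0294 to 1.14 CPM), most in the Tet2 het and WT groups. The groups overlapped and the fold change did not pass (log2 -1.92 ± 0.73, edgeR adjusted p = 0.105). It passed without URE het Tet2 het replicate 2 (log2 -3.01, adjusted p = 0.0266) or URE het Tet2 KO replicate 1 (log2 -2.91, adjusted p = 0.0433). Id2, an inhibitor of E proteins, had 51.3, 13.6 and 15.1 CPM in URE het Tet2 KO and 10.7 and 20.2 CPM in URE het Tet2 het, against 17.8 to 49.9 CPM in Normal libraries. URE het Tet2 KO replicate 1 was above the Normal range and 3 other AML libraries were below it. The fold change did not pass with that replicate (log2 -0.59 ± 0.32, edgeR adjusted p = 0.250) and passed without it (log2 -1.04, adjusted p = 0.00971).

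Xcr1 and Clec9a are surface receptors of type 1 dendritic cells, the first for the chemokine XCL1 and the second for actin filaments of dead cells. Xcr1 had 0.423, 0.430 and 0.151 CPM in URE het Tet2 KO and 0.0650 and 0.552 CPM in URE het Tet2 het, against 0.366 to 2.92 CPM in Normal libraries. The groups overlapped, and Xcr1 did not pass in edgeR (log2 -1.75 ± 0.58, adjusted p = 0.0672) and passed in DESeq2 (adjusted p = 0.00925). In edgeR it also passed with URE het Tet2 het replicate 2 left out (log2 -2.87, adjusted p = 0.0208) and with Tet2 het replicate 1 left out (log2 -1.86, adjusted p = 0.0439). Clec9a, on chromosome 6 at 129408862 to 129424763, had 0.338, 0.229 and 1.18 CPM in URE het Tet2 KO and 1.04 and 2.93 CPM in URE het Tet2 het libraries. It had 5.76, 5.39 and 5.67 CPM in Tet2 KO, 6.20, 7.61 and 15.3 CPM in Tet2 het, 1.76, 2.33 and 2.63 CPM in URE het and 4.29, 3.84 and 4.94 CPM in WT libraries. Of the 5 AML libraries 4 lay below the Normal range, and URE het Tet2 het replicate 2 lay just above the URE het libraries. The log2 fold change was -2.14 ± 0.39 (edgeR adjusted p = 0.00406), called in each of the 17 omissions and without the 3 libraries apart (adjusted p = 0.0176). Clec9a overlaps Clec1b on the same strand, and 4.02% of its 50-base windows are shared with it.

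The URE deletion added to loss of both Tet2 copies was read from URE het Tet2 KO against Tet2 KO libraries. Of the 10 members 2 were lower and 0 higher, Cd209a and Clec9a, where 0.581% of genes were lower. Cd209a had 0 counts in the 3 URE het Tet2 KO libraries against 167 in the 3 Tet2 KO libraries, so it was at least 56.5-fold lower with 3 counts over the group as the floor (edgeR adjusted p = 0.0178). Clec9a averaged 0.582 ± 0.520 CPM in URE het Tet2 KO and 5.61 ± 0.196 CPM in Tet2 KO libraries (SD, n = 3 each), a log2 fold change of -3.25 ± 0.57 (edgeR adjusted p = 0.0281). The 3 URE het Tet2 KO libraries were below the 3 Tet2 KO libraries for both genes. With 3 libraries on each side such a separation is weak, and its share over all genes was not counted. F13a1 (log2 2.59 ± 0.71, edgeR adjusted p = 0.0864) and Ccr2 (log2 -1.44 ± 0.40, edgeR adjusted p = 0.0921) did not pass. DESeq2 called all 4 of these, and 6.07% of genes. Of 17 omissions, 14 kept the call of Cd209a and 12 that of Clec9a, with adjusted p up to 0.0818 and 0.100, both when replicate 2 of URE het Tet2 KO was left out.

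In URE het Tet2 het against Tet2 het libraries edgeR called 0 members and 0% of genes. At an unadjusted p under 0.05 there were 6 members and 13.3% of genes. DESeq2 called Cd209a and Clec9a, and 3% of genes. Cd209a had 5 counts in the 2 URE het Tet2 het libraries and 211 in the 3 Tet2 het libraries, 37.0-fold lower when pooled (95% exact interval 15.6 to 115), which did not pass (edgeR adjusted p = 0.0989). Clec9a averaged 1.98 ± 1.34 CPM in URE het Tet2 het (SD, n = 2) and 9.69 ± 4.88 CPM in Tet2 het libraries (SD, n = 3), a log2 fold change of -2.28 ± 0.62 (edgeR adjusted p = 0.160). The log2 fold change of F13a1 was 2.03 ± 0.74 (edgeR adjusted p = 0.258) and -0.04 without URE het Tet2 het replicate 1.

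Loss of Tet2 on the URE het background was read against URE het libraries, which are also part of other comparisons above. For URE het Tet2 KO edgeR called 0 members, where 0.356% of genes were called. At an unadjusted p under 0.05 there were 5 members and 15.1% of genes, and DESeq2 called Cd209a, Clec9a, Ccr2 and F13a1, and 5.08% of genes. Cd209a had 0 counts in URE het Tet2 KO against 25 in URE het libraries, at least 8.29-fold lower by counts, which did not pass (edgeR adjusted p = 0.0617). Ccr2 averaged 37.8 ± 18.003 CPM in URE het Tet2 KO and 109 ± 39.7 CPM in URE het libraries (SD, n = 3 each; log2 -1.52 ± 0.40, edgeR adjusted p = 0.0981). F13a1 averaged 1366 ± 1028 CPM in URE het Tet2 KO and 231 ± 68.1 CPM in URE het libraries (SD, n = 3 each; log2 2.56 ± 0.71, edgeR adjusted p = 0.108). For URE het Tet2 het against URE het edgeR called 0 members and 0% of genes, and 3 members and 13.2% of genes had an unadjusted p under 0.05. DESeq2 called Ccr2 and 2.66% of genes. The log2 fold change of Ccr2 was -1.48 ± 0.47 (edgeR adjusted p = 0.210).

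Between the 2 compound genotypes, URE het Tet2 KO against URE het Tet2 het, edgeR and DESeq2 called 0 members, where edgeR called 0.01% and DESeq2 1.68% of genes. Batf3, Clec9a and Cd209a had an unadjusted p under 0.05 in edgeR, as did 11.8% of genes. Batf3 was at 1 count in 3 URE het Tet2 KO libraries and 27 in 2 URE het Tet2 het libraries, of which 25 were in replicate 2 (edgeR adjusted p = 0.246). Clec9a had a log2 fold change of -1.76 ± 0.59 (edgeR adjusted p = 0.291) and the groups overlapped. The AML library nearest to the Normal libraries on the first principal component, URE het Tet2 het replicate 2, had the most Batf3, Xcr1 and Clec9a of the 5 AML libraries. It also held the only Cd209a counts, at 0.106 CPM. The 0 counts of the other 4 allow up to 0.0860 to 0.127 CPM, so a difference in Cd209a was not shown.

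Each single mutant was compared with WT. In edgeR, URE het, Tet2 het and Tet2 KO against WT each called 0 members and 0% of genes, and DESeq2 called 0 members in each and 0.0351%, 0.00501% and 0.0601% of genes. At an unadjusted p under 0.05 there was 1 member in URE het (Cd209a; 3.78% of genes), 2 in Tet2 het (Zbtb46 and Clec9a; 2.93% of genes) and 1 in Tet2 KO (Batf3; 2.57% of genes). Cd209a averaged 0.271 ± 0.0570 CPM in URE het and 1.11 ± 0.725 CPM in WT libraries (SD, n = 3 each; log2 -2.02 ± 0.69, edgeR adjusted p = 1.00). These groups did not overlap, and the share of all genes that separate them was not counted. Zbtb46 averaged 5.26 ± 2.87 CPM in Tet2 het and 2.02 ± 0.822 CPM in WT libraries (SD, n = 3 each; log2 1.38 ± 0.44, edgeR adjusted p = 1.00). Batf3 had 7 counts in the 3 Tet2 KO and 39 in the 3 WT libraries (log2 -2.29 ± 0.94, edgeR adjusted p = 1.00). Ccr2 averaged 109 ± 39.7 CPM in URE het and 62.2 ± 6.02 CPM in WT libraries (SD, n = 3 each; log2 0.81 ± 0.40, edgeR adjusted p = 1.00).

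Cd209a and Clec9a were lowest in the libraries that carry the URE deletion. These include all 5 AML libraries and only 3 Normal ones, so the split over all libraries mixes disease with URE genotype. Cd209a was at 0 to 0.332 CPM in the 8 libraries with the URE deletion, against 0.401 to 3.47 CPM in the 9 URE+/+ libraries. Clec9a was at 0.229 to 2.93 CPM in the 8 libraries with the deletion, against 3.84 to 15.3 CPM in the 9 URE+/+ libraries. These 2 of the 10 members were lower without overlap, and so were 0.14% of all genes tested. Within Normal libraries alone, both were also lower without overlap in the 3 URE het than in the 9 other libraries, as were 0.772% of genes. A contrast of URE het with the mean of the other Normal genotypes, chosen after these values were seen, gave log2 -2.67 ± 0.64 for Cd209a and -1.47 ± 0.46 for Clec9a. Their unadjusted p were 0.00109 and 0.00584, and neither passed in edgeR (adjusted p = 1.00 for both), which called 0% of genes there; DESeq2 called Cd209a (adjusted p = 0.00840) and 0.0551% of genes. The smallest gap was for Cd209a, between the highest URE het library at 0.332 CPM (10 counts) and the lowest WT library at 0.401 CPM (13 counts).

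The interaction asked whether the URE deletion acted differently with and without loss of Tet2, as the change of URE het Tet2 KO against Tet2 KO minus that of URE het against WT. In edgeR it called 0 members and 0% of genes, with 4 members and 8.11% of genes at an unadjusted p under 0.05, and DESeq2 called Cd209a and Ccr2, and 0.757% of genes. The log2 interaction was -2.25 ± 0.57 for Ccr2 (edgeR adjusted p = 0.351, DESeq2 adjusted p = 0.0271) and -6.90 ± 1.47 for Cd209a (edgeR adjusted p = 0.293, DESeq2 adjusted p = 0.00767).

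Other genes of the same lineages were read from lists of textbook markers. Of 22 monocyte lineage genes tested in AML against Normal, 2 were higher and 3 lower in edgeR, with a median log2 fold change of -0.17 against 0.05 over all genes. Of all genes tested, 6.94% were higher and 4.02% lower, which also holds beside the dendritic lists below. Vcan, a matrix proteoglycan, averaged 71.6 ± 62.4 CPM in AML and 4.06 ± 3.64 CPM in Normal libraries (SD, n = 5 and 12; log2 4.16 ± 0.69, edgeR adjusted p = 0.00246). Fn1, fibronectin, averaged 946 ± 1163 CPM in AML and 39.7 ± 35.2 CPM in Normal libraries (SD, n = 5 and 12; log2 4.11 ± 0.75, edgeR adjusted p = 0.00413). Both calls were lost, at adjusted p of 0.152 and 0.196, when replicate 1 of URE het Tet2 het was left out. Lyz2, lysozyme, was lower (log2 -1.55 ± 0.36, edgeR adjusted p = 0.0145), and so was Ctss, the protease cathepsin S (log2 -0.89 ± 0.24, edgeR adjusted p = 0.0283), which kept its call in 14 of 17 omissions and had an adjusted p of up to 0.0807 without URE het Tet2 het replicate 2. Transcripts of the monocyte lineage thus included both directions in AML against Normal, but not clearly in each library. In URE het Tet2 KO replicates 2 and 3 and URE het Tet2 het replicate 1, Vcan and Fn1 were high. There Lyz2 lay at -1.46, -0.74 and -1.10 log2 units from the Normal mean, where the lowest Normal library was at -1.08. Ctss lay at -1.35, -0.33 and -0.46, where the lowest Normal library was at -0.68.

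Of 23 conventional dendritic cell genes tested out of 25, 1 was higher and 7 lower, with a median log2 fold change of -0.71. Irf4, a factor of type 2 dendritic cells, averaged 0.297 ± 0.197 CPM in AML and 2.17 ± 1.40 CPM in Normal libraries (SD, n = 5 and 12; log2 -2.57 ± 0.45, edgeR adjusted p = 0.00346). Cadm1, an adhesion molecule of type 1 dendritic cells, was at 0 to 0.0650 CPM in AML and 0.0665 to 1.84 CPM in Normal libraries (log2 -5.40 ± 0.91, edgeR adjusted p = 0.00356). Naaa, a lysosomal amidase of type 1 dendritic cells, was lower (log2 -1.79 ± 0.29, edgeR adjusted p = 0.00226). Traf1, an adaptor of TNF receptors, was higher (log2 2.31 ± 0.44, edgeR adjusted p = 0.00541), a call lost, at an adjusted p of 0.114, when replicate 1 of URE het Tet2 het was left out. Of 13 plasmacytoid dendritic cell genes tested out of 15, 1 was higher and 4 lower, with a median log2 fold change of -0.82. Tlr7, which encodes a sensor of single-stranded RNA, was higher (log2 2.02 ± 0.42, edgeR adjusted p = 0.00884), a call lost at an adjusted p of 0.591 when replicate 1 of URE het Tet2 het was left out. Ly6d (log2 -3.81 ± 0.83, edgeR adjusted p = 0.0104) and the transcription factor Spib (log2 -2.18 ± 0.50, edgeR adjusted p = 0.0135) were lower. Siglech, a lectin of these cells, averaged 0.490 ± 1.01 CPM in AML and 3.85 ± 2.51 CPM in Normal libraries (SD, n = 5 and 12; log2 -3.54 ± 0.81, edgeR adjusted p = 0.0134). In URE het Tet2 KO against Tet2 KO, 4 of 23 conventional dendritic genes tested (Naaa, Mgl2, Cadm1 and Irf4) were lower and 0 higher. Of 13 plasmacytoid genes tested, 1 (Siglech) was lower, where 0.581% of all genes were lower. Of 22 monocyte lineage genes, 0 passed in edgeR, 10 had an unadjusted p under 0.05 and 3 passed in DESeq2. Over all genes, 3016 of 19951 had an unadjusted p under 0.05 in edgeR, and DESeq2 called 6.07%. Each of these 5 dendritic gene calls held in only 3 or 4 of the 17 omissions, with adjusted p up to 0.156.

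**Figure D3:**
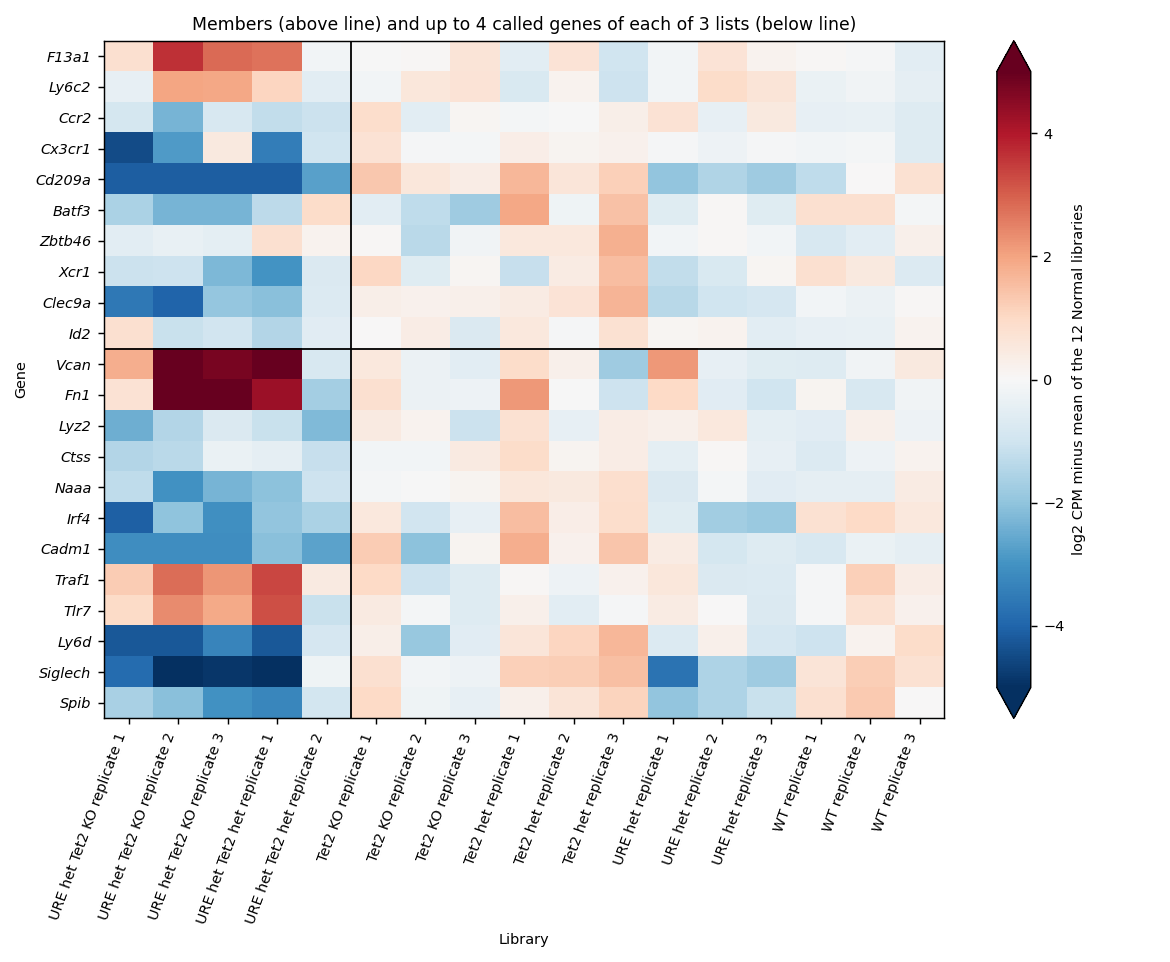
Log2 CPM (prior count of 2) of each library minus the mean of the 12 Normal libraries, for the 10 members above the horizontal line and, below it, up to 4 genes each of the monocyte, conventional and plasmacytoid dendritic lists that passed in AML against Normal. AML libraries are left of the vertical line, and the colour scale is limited to 5 log2 units either way. F13a1, Ly6c2, Vcan and Fn1 are high in the same 3 AML libraries, while Cd209a is low in all 5.

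Genes around the members' own roles were read against the 11% of all genes that edgeR called in AML against Normal. In AML against Normal edgeR called 1 of 7 genes of BATF and its partners (Irf4, lower) and 1 of 11 chemokine receptors tested (Ccr3, lower, in 8 of 17 omissions). It called 0 of 5 Id and E protein genes and 0 of 4 ligand and growth factor genes tested. In each of these lists 1 gene had an unadjusted p under 0.05, as did 26.3% of all genes. DESeq2 called 0 in each, and 16.3% of all genes. Of 4 transglutaminases Tgm2 was lower (log2 -3.07 ± 0.53, edgeR adjusted p = 0.00308), opposite in direction to F13a1. Of 12 Ly6 and Cd209 relatives, Ly6c1 was higher (log2 1.53 ± 0.39, edgeR adjusted p = 0.0211) and Clec1a lower (log2 -2.02 ± 0.54, edgeR adjusted p = 0.0277), each in 15 of 17 omissions. Cd209b, Cd209d, Cd209e and Cd209f had 0 counts in all 5 AML libraries and at most 0.235 CPM in any Normal library, too low to be tested.

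Markers of other cells moved in the same comparison. Of all genes tested, edgeR called 6.94% higher and 4.02% lower there, and DESeq2 called 16.3%. Median log2 fold changes were -1.41 for neutrophil, -1.66 for erythroid, -3.32 for B cell and -3.94 for mast, basophil and eosinophil markers. These lay further below 0 than the medians of the dendritic lists (-0.71 and -0.82). Medians were -0.75 for HSPC, -0.53 for T and NK cell and -0.52 for macrophage markers. All 6 neutrophil markers were measured and summed to 10338 to 32295 CPM in AML and 24919 to 89190 CPM in Normal libraries. Of these, 4 of 6 were lower (S100a8, Camp, S100a9 and Ltf, in 17, 13, 15 and 12 of 17 omissions) and none was at 0 throughout AML. Of 5 mast, basophil and eosinophil markers 3 were lower, and the list summed to 18.04 to 88.8 CPM in AML and 78.7 to 234 CPM in Normal libraries. Of 5 B cell markers 3 were lower (Ebf1, Pax5 and Cd79a, in 17, 16 and 10 of 17 omissions). Of 5 macrophage markers tested, Vcam1 was higher (in 4 of 17 omissions), while C1qa was at 0 to 0.0975 CPM in AML and 0 to 2.43 CPM in Normal libraries. Of 7 HSPC markers 0 passed in edgeR, 4 had an unadjusted p under 0.05, as did 26.3% of all genes, and 2 passed in DESeq2; they summed to 828.6 to 1500.4 CPM in AML and 1201 to 1665 CPM in Normal libraries. Of 4 T and NK cell genes and 4 erythroid genes tested, 0 and 0 passed in edgeR, 2 and 2 had an unadjusted p under 0.05, and 2 and 1 passed in DESeq2. The part of these cells in the members' differences was not tested.

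For many genes the count table also has rows that carry the gene's identifier and the suffix enh, called enhancer rows here; their coordinates and meaning are not known from the sources used here. There were 35 such rows for 9 of the members, none for Cd209a. Of these, 15 had enough counts to be tested, 6 were higher in AML and 0 lower, where 2.82% of the 22307 such rows tested were higher and 1.06% lower. F13a1 accounted for 5 of the 6, with log2 fold changes from 2.31 to 2.94 (edgeR adjusted p from 0.00444 to 0.0195). Rows of 1 gene are not separate observations. Per 100 counts of the gene row, the F13a1 enhancer rows together had 5.34 to 17.9 counts in AML and 5.18 to 18.7 in Normal libraries. These ranges overlapped, and a change of the enhancer rows beyond that of the gene row was not tested. The row F13a1 enh.1 had 6.59, 77.3 and 65.4 CPM in URE het Tet2 KO and 60.5 and 11.9 CPM in URE het Tet2 het, against 3.70 to 24.4 CPM in Normal libraries. It was high in the same 3 libraries as the F13a1 gene row, and the other 2 AML libraries were inside the Normal range. The sixth was Ccr2 enh.2, with 1, 103 and 97 counts in URE het Tet2 KO and 157 and 5 counts in URE het Tet2 het, against 0 to 13 counts in Normal libraries (log2 5.56 ± 0.81, edgeR adjusted p = 0.00115). It was again high in the 3 libraries apart, while the Ccr2 gene row was lower in all 5 AML libraries. Without URE het Tet2 het replicate 1 all 6 rows lost their call, with adjusted p from 0.134 to 0.296, and 0 of the 15 rows passed without the 3 libraries apart.

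**Figure D4:**
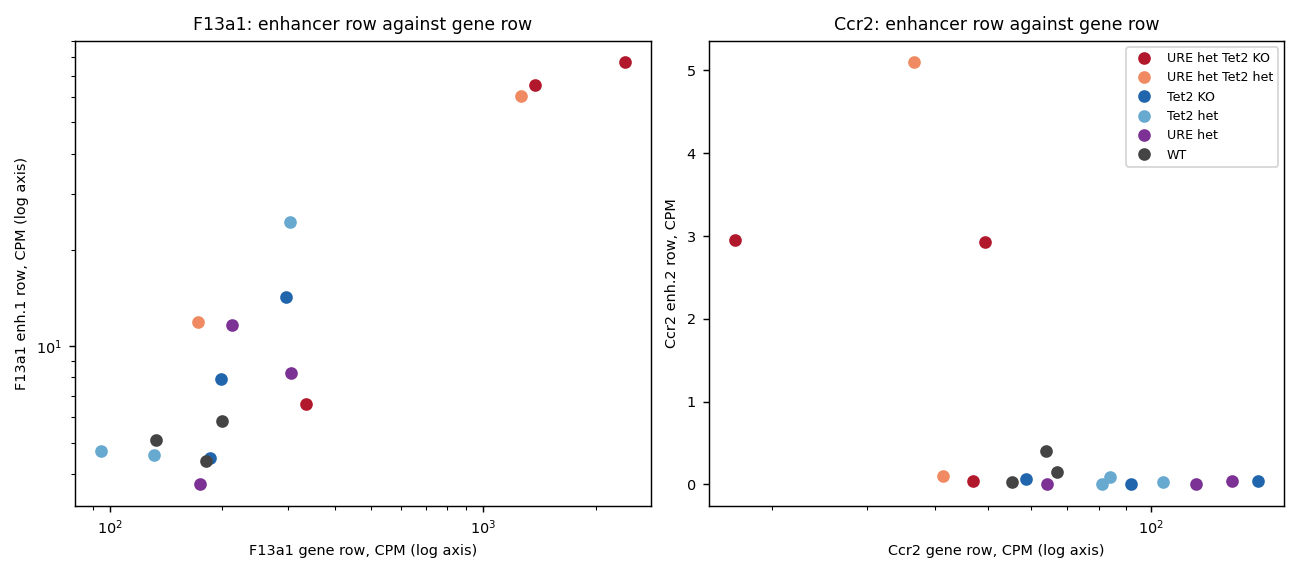
Enhancer row against gene row, each point 1 library coloured by genotype, for F13a1 (left, both axes log CPM) and Ccr2 (right, log CPM of the gene row across and CPM of the enhancer row up). The 3 AML libraries apart lie at the upper right for F13a1, and for Ccr2 they lie high on the enhancer row, above 2.9 CPM, with gene row levels below every Normal library.

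The genes whose pattern over the 17 libraries was most like that of a member were taken as those with the smallest root mean square difference of centred log2 CPM among 13134 protein-coding genes. For F13a1 they were Hpse, Glis3 and Gstm3, at 0.369 to 0.41 log2 units, where the SD of F13a1 itself was 1.29. For Ly6c2 they were Fgl2, Stom and Mbnl2, at 0.368 to 0.382. For Cd209a the nearest gene, Ear10, was at 0.778 with an SD of Cd209a of 2.13, and for Clec9a, Trim36 was at 0.547. For Id2 they were Cdkn3, Ccna2 and E2f7, at 0.323 to 0.343. These are descriptions over libraries that share their genotypes.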

How the data were processed

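RNA-seq of 17 libraries was read from 1 deposited table of raw counts per feature, left unnormalized by the authors. STAR and GRCm38 are named in the submitters' processing notes; the STAR version, counter, annotation and use of strand are not given in the sources used here. Identifiers were matched without version to GENCODE vM21, which may differ from the authors' release; 47224 of 47643 gene rows matched, and 6 of the 10 members had the same version. The members, gene lists and tests were chosen with earlier results of these data known.

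Genes were filtered with filterByExpr (minimum count 10, minimum total 15), which kept 19951, and tested with edgeR 4.0.16 in R 4.3.3 (TMM scaling, robust quasi-likelihood F test, 1 mean for each of 6 genotypes), two-sided, with Benjamini-Hochberg adjustment over all genes of a comparison at 0.05. AML against Normal set the mean of 2 compound genotypes against the mean of 4 others. The SE is the log2 fold change over the square root of F. Enhancer rows were fitted apart, with library sizes and TMM factors of the gene rows. CPM values use TMM-scaled library sizes. A group with 0 counts has a floor of 3 counts, and intervals are exact at 95%.

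All 10 members are named, and from each list up to 4 genes that passed with the smallest p per comparison; the Cd209 relatives at 0, the overlapping genes and the level checks (Kit, Cd34, Spi1, C1qa) were named outside that rule, with values known. Alternatives were DESeq2 size factors, no filter, DESeq2 1.42.0, a term for title numbers (1 to 7 against 8 to 17), title numbers 8 to 17 alone, and leaving out each library; the fit without 3 AML libraries and the contrast of URE het with the other Normal genotypes were added after the data were seen. Pairs of replicates differed beyond sampling noise, with a chi-square per degree of freedom of at least 53.4. The fit was tested on simulated counts.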

Additional observations from a re-analysis of the deposited data

Results flagged for a closer look

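Among the 5 AML libraries, 3 members had 1 library past the limit of Dixon's gap test; 10 members were tested and chance marks about 5% of groups. URE het Tet2 het replicate 2 held the only Cd209a counts, at 0.106 CPM where the other 4 libraries had 0. With 4 values tied at 0 any count in the fifth passes that test, and 0 counts allow up to 0.0860 to 0.127 CPM there, so a difference was not shown. The same library had 0.530 CPM of Batf3, against 0 to 0.0650 CPM in the other 4. URE het Tet2 KO replicate 1 had 51.3 CPM of Id2, against 10.7 to 20.2 CPM in the other 4.

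For Ccr2, every URE het Tet2 KO library lay below the Tet2 KO mean, while every URE het library lay above the WT mean. The test of that difference gave a log2 interaction of -2.25 ± 0.57. In edgeR its adjusted p was 0.351, above the threshold, and over the alternatives it ran from 0.0271, in DESeq2, to 0.668.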

How the results depend on the processing

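Over the alternatives run for single members and rows, 837 values kept direction and side of the threshold, 42 passed only in the alternative, 29 no longer passed and 13 changed sign. Cd209a and Clec9a passed in AML against Normal under every alternative run. DESeq2 moved the members called to 4 in URE het Tet2 KO against Tet2 KO, 2 in URE het Tet2 het against Tet2 het, 4 in URE het Tet2 KO against URE het, 1 in URE het Tet2 het against URE het, 2 in the interaction and 1 in URE het against the other Normal genotypes. Over all genes it called 1212, 599, 1013, 530, 151 and 11 in these comparisons, 335 between the compound genotypes, and 7, 1 and 12 in URE het, Tet2 het and Tet2 KO against WT. The title number term gave 3662 genes in AML against Normal, 415 in URE het Tet2 KO against Tet2 KO, 147 (with 1 member) in URE het Tet2 het against Tet2 het, 258 and 108 in the compound genotypes against URE het and 14 between them; title numbers 8 to 17 alone gave 4334 in AML against Normal. Without a filter, 1 member passed in URE het Tet2 KO against URE het, and 1 gene each in the interaction and in URE het against the other Normal genotypes. Leaving out the 3 AML libraries apart gave 398 genes and 0 of the members' enhancer rows, and turned the log2 change to -0.57 for Ly6c2, 0.030 for Id2 and -0.21 for F13a1 enh. The causes were not tested.

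Over omissions of 1 library, members called ranged from 2 to 7 in AML against Normal, lowest without replicate 1 of URE het Tet2 het and highest without its replicate 2 or without replicate 1 of URE het Tet2 KO. They ranged from 0 to 5 in URE het Tet2 KO against Tet2 KO, with 0 when replicate 1 of Tet2 KO or replicate 2 of URE het Tet2 KO was left out and 5 when replicate 1 of URE het Tet2 KO was. They ranged from 0 to 3 in URE het Tet2 het against Tet2 het and in URE het Tet2 KO against URE het, 0 to 2 between the compound genotypes and 0 to 1 in the interaction. Genes called ranged from 926 to 3999 in AML against Normal, 3 to 1790 in URE het Tet2 KO against Tet2 KO, 0 to 1225 in URE het Tet2 het against Tet2 het, 0 to 1788 and 0 to 863 in URE het Tet2 KO and URE het Tet2 het against URE het, 1 to 1061 between these, 0 to 279 in the interaction and 0 to 1 in URE het against the other Normal genotypes. The members' enhancer rows called ranged from 0 to 8. Of the 110 pairs of a member and a comparison, 25 changed the sign of the log2 change in at least 1 omission, among them Cx3cr1 (-1.71 to 2.70) and Xcr1 (-0.72 to 2.30) between the compound genotypes, F13a1 (-0.43 to 2.44) and Clec9a (-1.11 to 0.39) in URE het Tet2 het against URE het, Zbtb46 (-0.22 to 0.083 in AML against Normal, -0.41 to 0.21 in URE het Tet2 KO against Tet2 KO), Id2 (-0.997 to 0.18 in URE het Tet2 KO against Tet2 KO) and F13a1 (-0.039 to 2.83 in URE het Tet2 het against Tet2 het). No paired analysis was possible because the title numbers run over all groups and pair no libraries. Batf3 and Cd209a rest on few counts in the low groups, where calls differ by setting: Cd209a in URE het Tet2 KO against URE het passed in 5 of 21 alternatives, with adjusted p from 0.00297 to 0.217.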
